A study of Saccharomyces cerevisiae with 12 samples.

Results

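The genes described here encode 10 antioxidant enzymes and thiol carriers of Saccharomyces cerevisiae. They are CTT1, SOD1, SOD2, CCP1, GRX1, GRX2, TRX2, GPX1, TSA1 and PRX1, chosen by gene symbol in the array annotation out of 5636 genes with a named probe. All 10 had a value on every array. Dual-colour oligonucleotide arrays compared a budding yeast strain labelled as a gcr1 null mutant, meaning a strain without the Gcr1 protein that switches on glycolysis, with another strain on 3 carbon sources. The sources were 3% raffinose, 3% galactose and 2% glucose, and both channels of an array held RNA from the same sugar. There were 4 arrays per sugar and 12 in all, described as biological replicates plus dye-swapped repeats of each, without a label for which arrays share a culture. Since 4 arrays thus stand for fewer than 4 cultures, the p-values below may understate the error. The labels do not give the other strain, which was assumed to carry intact GCR1.

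Each value below is a deposited log2 ratio between the strains, averaged over the probes of a gene, and a mean ± SD is over the 4 arrays of a sugar. A positive ratio was read as higher in the labelled mutant. GCR1 itself goes against that reading: it lay above 0 on all 12 arrays, with a mean of 1.67 ± 0.35 on the raffinose arrays, 1.58 ± 0.22 in galactose and 0.40 ± 0.13 in glucose. No label states the channel of the mutant, and it is unknown here whether the GCR1 probes lie in the deleted sequence. The reading rests on 5 glycolytic genes that Gcr1 is known to activate, GPM1, ENO2, TPI1, PGK1 and CDC19, whose 60 values all lay below 0, from -6.39 to -1.21. If the direction were the other way round, higher and lower would change places in every statement that follows.

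The relative sign of the arrays was examined as well. Over all probes, raffinose replicates 1 and 2 correlated with raffinose replicates 3 and 4 at r = -0.507 to -0.34, and between sugars the same split gave r = -0.439 to -0.152. Over probes with a gene name these ranges were 0.243 to 0.466 and 0.12 to 0.487. The named genes used for direction kept one sign on all 4 raffinose arrays, with GPM1 at -4.67, -4.60, -6.13 and -6.17 and GCR1 from 1.36 to 2.04. The unnamed probes included 114 extreme spots, all of which changed sign between the pairs. Over all probes the same split gave r = -0.143 to -0.051 within galactose and 0.1 to 0.118 within glucose. The limit used for turning arrays was r = -0.3 within a sugar, and only raffinose lay below it. Raffinose results are therefore also given with replicates 3 and 4 turned, and galactose arrays were not turned. Precision is limited by the 4 arrays per sugar, and spot intensities were not used here. Array medians over all genes ran from -0.188 to 0.296.

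Respiring and fermenting yeast both produce superoxide and hydrogen peroxide, and the enzymes that remove them fall into a few chemical classes. Superoxide dismutases convert superoxide to hydrogen peroxide. Catalases, peroxidases and peroxiredoxins then reduce the peroxide, the last with electrons passed on by thioredoxin or glutathione. Glutaredoxins and thioredoxins also keep protein thiols reduced. Many of these genes are known targets of the general stress activators Msn2 and Msn4 or of the oxidative stress activator Yap1, and glucose normally holds the Msn2/4 targets and respiratory genes low.

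In glucose, 6 of the 10 genes were called higher in the labelled mutant and 2 lower, with a median log2 ratio of 0.68 against -0.038 over all genes. A call is a limma p under 0.05 after Benjamini-Hochberg adjustment across the 5636 genes; 26.8% of all genes were called higher and 31.8% lower in glucose. In raffinose 5 were called higher and 0 lower, with a median of 0.34 against 0.052 over all genes, of which 22.4% were called higher and 14.3% lower. In galactose 3 were called higher and 3 lower, with a median of -0.094 against 0.078 over all genes, of which 34.8% were called higher and 25.2% lower. The share called higher thus lay above that of all genes in glucose and raffinose and near it in galactose. The members were chosen with earlier results of these data known, so this comparison only describes the set. CTT1, GRX1 and GPX1 were called higher in all 3 sugars, no gene was called lower in all 3, and TRX2 was called in none. The galactose count of called members dropped from 6 to 3 without galactose replicate 3 or 4. Of all genes, 1962 were called higher and 1421 lower in galactose with every array. Without replicate 3 these were 1878 and 1093, and without replicate 4 they were 2000 and 1131. With each array centred on its median the counts became 5 higher and 1 lower in raffinose (25.5% and 25.3% of all genes), 2 higher and 5 lower in galactose (35.1% and 34.9%) and 6 and 2 in glucose (33.5% and 34.5%). When replicate number was a block in the fit, 5 were called higher and 3 lower in raffinose (34.8% and 25.7% of all genes), 4 higher and 5 lower in galactose (42.7% and 34.1%) and 6 and 2 in glucose (35.1% and 39.9%). With replicates 1 and 2, and replicates 3 and 4, averaged, the calls higher were 2 in raffinose (CTT1 and GRX1), the same 2 in galactose and 4 in glucose (CTT1, PRX1, GRX1 and GPX1), with no other member called. Of all genes, 2.2% were then called higher and 1.06% lower in raffinose, 18.2% and 11.8% in galactose and 14.0% and 13.8% in glucose.

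**Figure D1:**
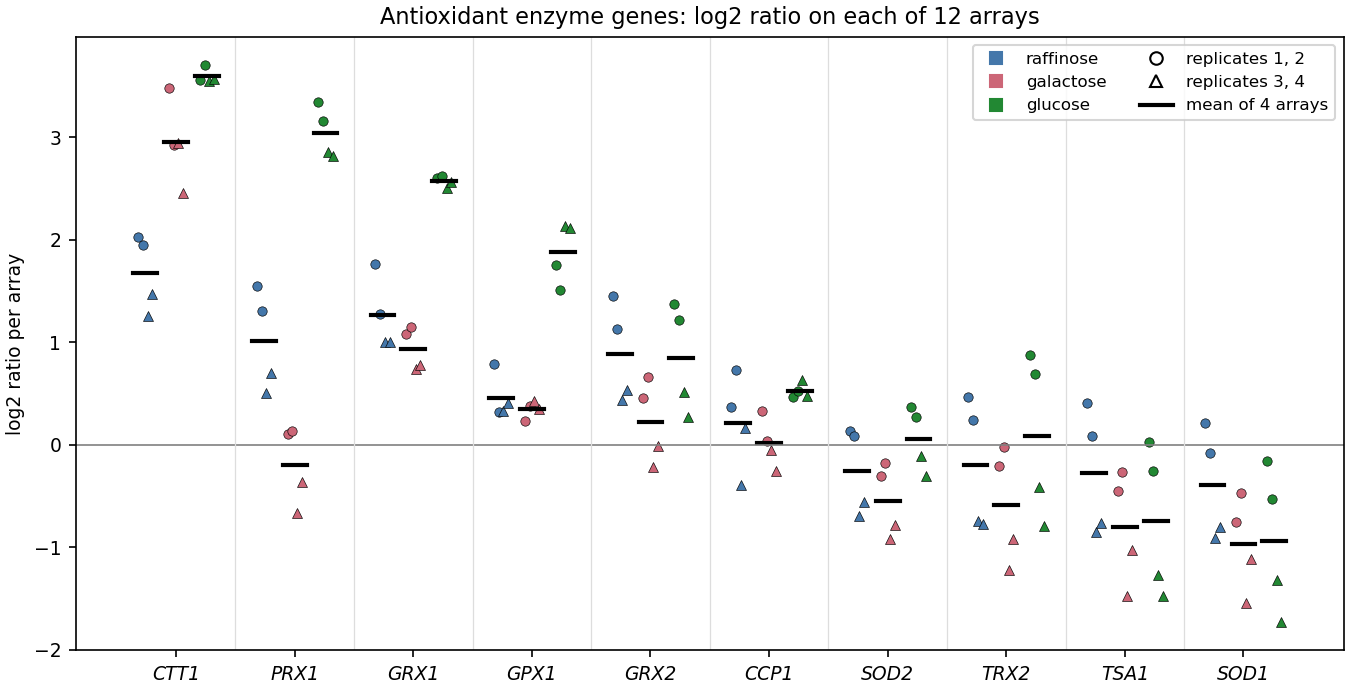
The log2 ratio of each of the 10 genes is plotted on the vertical axis for every array, with raffinose in blue, galactose in red and glucose in green. Circles are replicates 1 and 2, triangles are replicates 3 and 4, and a bar is the mean of 4 arrays. CTT1 lies highest in each sugar, with means of 1.67, 2.95 and 3.60, and PRX1 runs from -0.20 in galactose to 3.04 in glucose.

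Among the enzymes that break down peroxide, CTT1 (YGR088W), the cytosolic catalase T and a stress-induced gene, had the largest mean ratio of the 10 in each sugar. Its log2 ratios were 3.56, 3.71, 3.55 and 3.57 on the glucose arrays, a mean of 3.60 ± 0.07 (limma, adjusted p = 4.2e-09), or 12.1-fold. In galactose they were 3.47, 2.93, 2.94 and 2.46, a mean of 2.95 ± 0.42 (adjusted p = 3.9e-08). In raffinose they were 2.02, 1.95, 1.25 and 1.47, a mean of 1.67 ± 0.37 (adjusted p = 9.5e-06), or 3.19-fold. The 3 sugars did not overlap for CTT1: every glucose array lay above every galactose array, and every galactose array above every raffinose array. Only 19 of 5636 genes in galactose and 36 in glucose had a mean as high as that of CTT1 or higher, counting CTT1 itself.

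PRX1 (YBL064C) encodes the mitochondrial peroxiredoxin, which reduces peroxide in the matrix. It was high in glucose, with log2 ratios of 3.34, 3.16, 2.86 and 2.81 and a mean of 3.04 ± 0.25 (limma, adjusted p = 3.8e-08), or 8.24-fold. In raffinose the ratios were 1.55, 1.30, 0.50 and 0.70, a mean of 1.01 ± 0.49 (adjusted p = 0.0011). In galactose they were 0.098, 0.13, -0.67 and -0.36, a mean of -0.20 ± 0.39 that did not pass the test (adjusted p = 0.364; adjusted p = 0.0469 in the fit with the block). The 3 sugars did not overlap for PRX1 either, but their order differed from that of CTT1, with raffinose above galactose. The means of PRX1 and CTT1 were closer in glucose (3.04 and 3.60) than in galactose (-0.20 and 2.95). Every glucose array of CTT1 still lay above those of PRX1.

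GPX1 (YKL026C), a glutathione peroxidase that acts on lipid hydroperoxides, showed a large ratio in glucose and small ones elsewhere. In glucose its log2 ratios were 1.75, 1.51, 2.14 and 2.11, a mean of 1.88 ± 0.30 (limma, adjusted p = 7.1e-08). The raffinose values were 0.78, 0.32, 0.33 and 0.41, a mean of 0.46 ± 0.22 (adjusted p = 0.0109). The galactose values were 0.23, 0.38, 0.42 and 0.35, a mean of 0.34 ± 0.08 (adjusted p = 0.0279). All 12 arrays lay above 0, and every glucose array lay above those of the other sugars. The GPX1 call in raffinose was lost without raffinose replicate 1 (adjusted p = 0.0639), and that in galactose without replicate 2, 3 or 4 (adjusted p = 0.0771, 0.0925 and 0.0671) and with arrays centred on their medians (adjusted p = 0.115).

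CCP1 (YKR066C), cytochrome c peroxidase of the mitochondrial intermembrane space, was called higher in glucose and not in the other sugars. Its glucose log2 ratios were 0.46, 0.52, 0.63 and 0.48, a mean of 0.52 ± 0.08 (limma, adjusted p = 0.0104). In raffinose they spread from -0.40 to 0.73 around a mean of 0.21 ± 0.47, and in galactose from -0.26 to 0.33 around 0.014 ± 0.24. Neither mean passed the test (adjusted p = 0.30 and 0.945), but without raffinose replicate 3 the raffinose mean was 0.42 and was called (adjusted p = 0.0358). The SD between arrays in raffinose, 0.47, was nearly as large as the glucose mean of 0.52.

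TSA1 (YML028W), the main cytosolic peroxiredoxin, was called lower in galactose and glucose. Its galactose log2 ratios were -0.46, -0.27, -1.48 and -1.03, a mean of -0.81 ± 0.55 (limma, adjusted p = 0.0262). In glucose they were 0.022, -0.26, -1.27 and -1.48, a mean of -0.75 ± 0.74 (adjusted p = 0.0387). In raffinose they were 0.40, 0.087, -0.86 and -0.76, a mean of -0.28 ± 0.62 that did not pass the test (adjusted p = 0.477; adjusted p = 0.027 in the fit with the block). In each sugar replicates 3 and 4 of TSA1 lay well below replicates 1 and 2. The galactose call of TSA1 was lost without galactose replicate 3 or 4 (adjusted p = 0.14 and 0.0863), and the glucose call without glucose replicate 3 (adjusted p = 0.17) or 4 (adjusted p = 0.204).

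The superoxide dismutase genes were not called higher in any sugar. SOD1 (YJR104C), the copper-zinc enzyme of the cytosol, had galactose log2 ratios of -0.76, -0.47, -1.54 and -1.12, a mean of -0.97 ± 0.46 (limma, adjusted p = 0.0061). In glucose they were -0.16, -0.53, -1.33 and -1.73, a mean of -0.94 ± 0.72 (adjusted p = 0.0079). All 8 of these arrays lay below 0. In raffinose the ratios of SOD1 were 0.21, -0.085, -0.91 and -0.80, a mean of -0.40 ± 0.54 (adjusted p = 0.262; adjusted p = 0.0105 in the fit with the block). The glucose call of SOD1 was lost without glucose replicate 4 (adjusted p = 0.0595).

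SOD2 (YHR008C), the manganese enzyme of the mitochondrial matrix, moved less than SOD1. Its galactose log2 ratios were -0.31, -0.18, -0.93 and -0.78, a mean of -0.55 ± 0.36 (limma, adjusted p = 0.017). The call was lost without galactose replicate 3 or 4 (adjusted p = 0.0961 and 0.0736). In raffinose the mean was -0.26 ± 0.43, with replicates 1 and 2 above 0 and replicates 3 and 4 below it (adjusted p = 0.276; adjusted p = 0.0114 in the fit with the block and 0.0309 with arrays centred). In glucose the mean was 0.054 ± 0.32 (adjusted p = 0.814), with the same split. Of the 3 genes for mitochondrial enzymes, PRX1 and CCP1 were called higher in glucose and SOD2 was not. Over the 12 arrays, however, the ratios of SOD2 correlated with those of CCP1 (Pearson r = 0.78) and PRX1 (r = 0.77). CCP1 and PRX1 correlated at r = 0.72. Outside these 3 genes, SOD2 correlated more closely with TRX2 (r = 0.949) and GRX2 (r = 0.916), so the correlation was not particular to them. All of these correlations include the split between replicates 1 and 2 and replicates 3 and 4.

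Of the thiol carriers, GRX1 (YCL035C), a glutathione-dependent disulphide reductase, was called higher in every sugar. Its glucose log2 ratios were 2.60, 2.62, 2.50 and 2.56, a mean of 2.57 ± 0.05 (limma, adjusted p = 8.3e-09), or 5.94-fold. The raffinose values were 1.76, 1.28, 1.0 and 1.0, a mean of 1.26 ± 0.36 (adjusted p = 1.7e-05). The galactose values were 1.08, 1.15, 0.74 and 0.78, a mean of 0.93 ± 0.21 (adjusted p = 4.8e-05). The glucose arrays of GRX1 lay apart from the rest, while raffinose and galactose overlapped.

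GRX2 (YDR513W), the paralog of GRX1 known to carry most of the glutaredoxin activity of the cell, was called in raffinose and glucose. Its raffinose log2 ratios were 1.45, 1.13, 0.43 and 0.53, a mean of 0.89 ± 0.48 (limma, adjusted p = 0.0069). In glucose they were 1.37, 1.21, 0.51 and 0.27, a mean of 0.84 ± 0.53 (adjusted p = 0.005). In galactose they were 0.45, 0.66, -0.22 and -0.011, a mean of 0.22 ± 0.40 (adjusted p = 0.406; adjusted p = 0.0361 in the fit with the block). The GRX2 probes differed by up to 0.628 on a glucose array, the widest gap among the 8 members with 2 probes.

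TRX2 (YGR209C), a cytosolic thioredoxin and a classic Yap1 target, did not pass the test in any sugar. Raffinose, galactose and glucose gave mean log2 ratios of -0.20 ± 0.65, -0.59 ± 0.57 and 0.088 ± 0.82 (limma, adjusted p = 0.637, 0.108 and 0.823). On the glucose arrays the ratios were 0.87, 0.69, -0.42 and -0.80, so replicates 1 and 2 lay above 0 and replicates 3 and 4 below it. The raffinose arrays split in the same way, at 0.46 and 0.24 against -0.74 and -0.77. The galactose arrays all lay below 0, and TRX2 was called lower there in the fit with the block (adjusted p = 0.00016) and with arrays centred on their medians (adjusted p = 0.0313). GRX1 and GRX2 are paralogs, as are TRX1 and TRX2, and TSA1 and TSA2. Whether the probes separate them was not tested.

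The differences between sugars were tested in the same fit. The glucose mean differed by the test from those of both other sugars for 4 genes, CTT1, PRX1, GRX1 and GPX1, and was the highest of the 3 means for each. It was also the highest for CCP1, SOD2 and TRX2, whose differences from it did not pass the test. Against raffinose, 4 of 10 members differed, all lower in raffinose, where 15.0% of all genes were called lower and 22.6% higher. PRX1 differed by -2.03 on the log2 scale (95% interval -2.59 to -1.47; limma, adjusted p = 0.0001), CTT1 by -1.92 (-2.41 to -1.44; adjusted p = 5.2e-05), GPX1 by -1.42 (-1.79 to -1.04; adjusted p = 7.2e-05) and GRX1 by -1.31 (-1.71 to -0.91; adjusted p = 0.00019). The arrays of raffinose and glucose did not overlap for these 4 genes; raffinose lay wholly below glucose for 15.3% of all genes and wholly above for 22.8%.

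Against galactose, 4 members were again lower than in glucose, where 19.3% of all genes were called lower and 27.8% higher. PRX1 differed by -3.24 (95% interval -3.81 to -2.68; limma, adjusted p = 1.2e-06), a 9.47-fold difference of the ratios, and only 33 of 5636 genes, PRX1 included, had a difference as low. GRX1 differed by -1.64 (adjusted p = 1.4e-05) and GPX1 by -1.53 (adjusted p = 1.5e-05). CTT1 differed by -0.65 (-1.14 to -0.16; adjusted p = 0.0314), and this call was lost without galactose replicate 2, 3 or 4 or any single glucose replicate (adjusted p = 0.0556 to 0.0916). The arrays did not overlap for these 4 genes and CCP1; galactose lay wholly below glucose for 19.4% of all genes and wholly above for 28.2%. The CCP1 difference was -0.51 (-0.98 to -0.040) and the SOD2 difference -0.60 (-1.15 to -0.060), with adjusted p = 0.0708 and 0.065. The former was called without galactose replicate 1 (adjusted p = 0.0475), and the latter without galactose replicate 2 or glucose replicate 4 (adjusted p = 0.0446 and 0.0464).

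Between raffinose and galactose, 2 members differed, in opposite directions. CTT1 was lower in raffinose by -1.28 (95% interval -1.76 to -0.79; limma, adjusted p = 0.0013), and PRX1 was higher by 1.22 (0.65 to 1.78; adjusted p = 0.004). Of all genes, 13.3% were called higher and 17.2% lower in raffinose than in galactose. The same 2 members were those whose arrays did not overlap, against 12.2% of all genes wholly higher and 17.4% wholly lower. For the other 8 members the interval of the difference included 0, and it was widest for TRX2, from -0.54 to 1.32. SOD1 and TSA1 had nearly the same mean in galactose and glucose, with differences of -0.037 (-0.84 to 0.77) and -0.062 (-0.93 to 0.81), intervals too wide to show that they were alike.

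**Figure D2:**
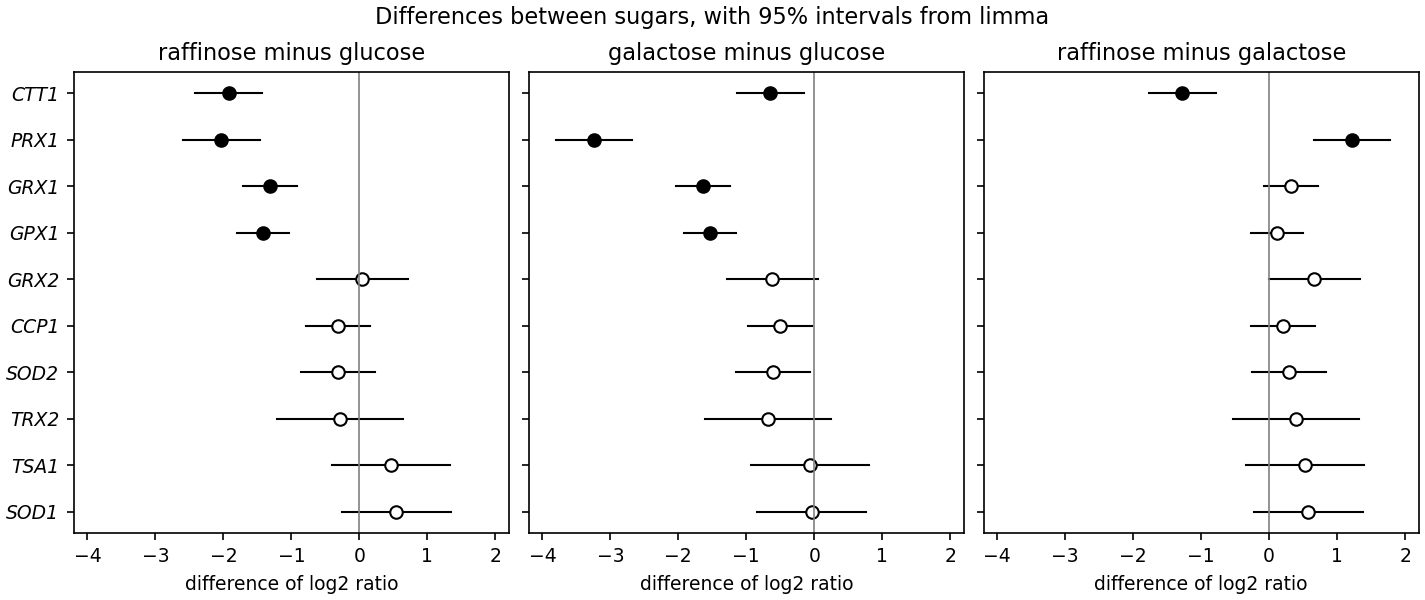
Each panel shows, for the 10 genes, the difference of the mean log2 ratio between a pair of sugars on the horizontal axis, with the 95% interval from limma as a line. Filled points passed an adjusted p under 0.05. CTT1, PRX1, GRX1 and GPX1 lie below 0 in both comparisons with glucose, and PRX1 reaches -3.24 in galactose against glucose.

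With the block, more of these differences were called: 2 higher and 5 lower in raffinose than in glucose (36.0% and 25.9% of all genes), 0 higher and 8 lower in galactose than in glucose (38.3% and 30.7%), and 7 higher and 1 lower in raffinose than in galactose (30.3% and 29.3%). In the last comparison the block added, as higher in raffinose, GRX2 (0.66, adjusted p = 0.00076), TSA1 (0.53, adjusted p = 0.0067), SOD1 (0.58, adjusted p = 0.0094), TRX2 (0.39, adjusted p = 0.0315), SOD2 (0.29, adjusted p = 0.0373) and GRX1 (0.33, adjusted p = 0.0473). Between galactose and glucose the block added SOD2 (adjusted p = 0.00037), GRX2 (adjusted p = 0.00079), TRX2 (adjusted p = 0.001) and CCP1 (adjusted p = 0.0244), all lower in galactose. Between raffinose and glucose it added SOD1 (0.54, adjusted p = 0.0124) and TSA1 (0.46, adjusted p = 0.0123) as higher and SOD2 (-0.31, adjusted p = 0.0244) as lower in raffinose. When replicates 1 and 2, and replicates 3 and 4, were instead averaged, which leaves 2 values per sugar, calls were lost. Both differences between raffinose and galactose failed the test (CTT1, adjusted p = 0.145, and PRX1, adjusted p = 0.208; 0.497% of all genes were called higher and 0.994% lower). Of the 4 between raffinose and glucose, the call remained for CTT1 (adjusted p = 0.0441) and was lost for PRX1, GPX1 and GRX1 (adjusted p = 0.0541, 0.0708 and 0.091; 0.426% of all genes higher and 1.92% lower). Between galactose and glucose it remained for PRX1, GRX1 and GPX1 (adjusted p = 0.0064, 0.0217 and 0.0236) and was lost for CTT1 (adjusted p = 0.276; 8.45% of all genes higher and 5.68% lower). That averaging keeps the difference of replicates 1 and 2 from replicates 3 and 4 in the spread. Averaging 1 and 3, and 2 and 4, also leaves 2 values per sugar but removes that difference, and calls were added. Raffinose and galactose then differed for CTT1 (limma, adjusted p = 0.0003) and PRX1 (adjusted p = 5.7e-05). Of all 5636 genes, 1828 were called higher and 1733 lower in that contrast. Centring each array on its median lowered every difference of raffinose from glucose by 0.136 and every difference of galactose from glucose by 0.164.

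The spread of the 10 genes between arrays followed the replicate numbers. Replicates 1 and 2 averaged above replicates 3 and 4 for all 10 genes in raffinose, 9 in galactose and 8 in glucose, where 81.6%, 83.3% and 64.8% of all genes did so. The gap was widest for TRX2, at 1.11 in raffinose, 0.95 in galactose and 1.39 in glucose, and nearly as wide for TSA1 (1.05, 0.89 and 1.26) and SOD1 (0.92, 0.72 and 1.19). The median gap over all genes was 0.53, 0.48 and 0.15. GPX1 had the smallest gap in raffinose, 0.18, and the opposite sign in galactose and glucose (-0.087 and -0.50). The means of the 2 pairs had opposite signs for 5 members in raffinose (SOD1, SOD2, CCP1, TRX2 and TSA1), 3 in galactose (CCP1, GRX2 and PRX1) and 2 in glucose (SOD2 and TRX2). What sets the pairs of arrays apart was not tested.

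**Figure D3:**
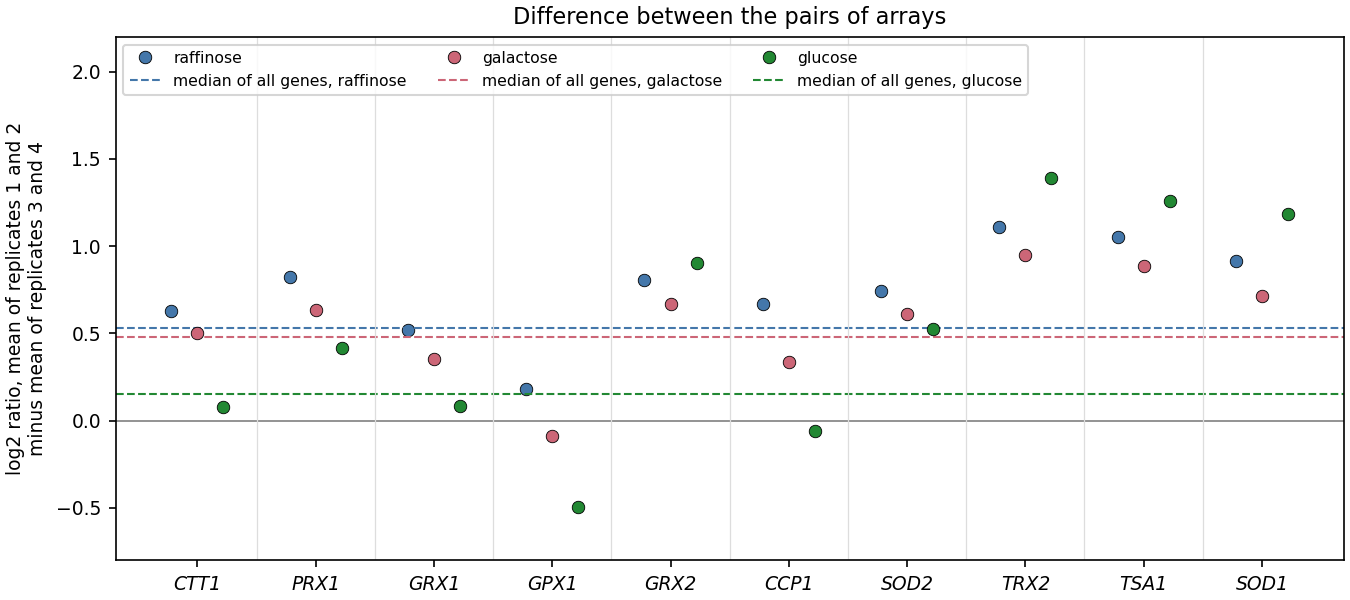
The vertical axis gives, for each of the 10 genes, the mean log2 ratio of replicates 1 and 2 minus that of replicates 3 and 4, in raffinose (blue), galactose (red) and glucose (green). Dashed lines are the medians over all 5636 genes, at 0.53, 0.48 and 0.15. TRX2, TSA1 and SOD1 lie above these lines in each sugar, and GPX1 lies below them.

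With raffinose replicates 3 and 4 turned in sign, no member was called in raffinose, as no gene was over the whole array set (0.0% of 5636 genes; 1463 had an unadjusted p under 0.05 in limma). All 10 means were then above 0, from 0.091 for GPX1 to 0.55 for TRX2, with CTT1 at 0.31 (adjusted p = 0.634), PRX1 at 0.41 (adjusted p = 0.359) and GRX1 at 0.26 (adjusted p = 0.603). A mean with replicates 3 and 4 turned is the gap between the pairs divided by 2, so it keeps nothing that the pairs share. The contrasts with raffinose turned therefore mostly restate the means of the other sugar. Against glucose, 4 members were called lower in raffinose, CTT1 (-3.28), PRX1 (-2.63), GRX1 (-2.31) and GPX1 (-1.79), and SOD1 (1.40, adjusted p = 0.009) and TSA1 (1.27, adjusted p = 0.0144) were called higher; 16.0% of all genes were called lower and 32.0% higher. Against galactose, CTT1 was called lower (-2.64, adjusted p = 0.0102), SOD1 (1.43), TSA1 (1.34), TRX2 (1.15) and SOD2 (0.92) were called higher, and PRX1 was no longer called (0.61, adjusted p = 0.292); 17.8% of all genes were called lower and 26.6% higher.

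Among 28 other genes of peroxide removal and thiol redox balance, 12 were called higher and 6 lower in glucose (26.8% and 31.8% of all genes), 7 higher and 5 lower in raffinose (22.4% and 14.3%), and 5 higher and 11 lower in galactose (34.8% and 25.2%). Their median log2 ratio was 0.33 in glucose, -0.060 in raffinose and -0.20 in galactose. More of them were thus called higher than lower in glucose and the reverse in galactose, where the 10 genes were called 3 higher and 3 lower; the lists were not tested against each other. With each array centred, 8 were higher and 10 lower in raffinose (25.5% and 25.3% of all genes), and 6 and 14 in galactose (35.1% and 34.9%). In the fit with the block, 10 were higher and 12 lower in raffinose (34.8% and 25.7% of all genes). With raffinose replicates 3 and 4 turned 0 of the 28 were called there, as were 0.0% of all genes, so that count says nothing particular to this list.

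The other catalase gene, CTA1 (YDR256C), whose product works in peroxisomes, was called lower in galactose. Its mean there was -2.76 ± 0.18 (limma, adjusted p = 2.1e-08), where CTT1 was at 2.95 ± 0.42. In raffinose and glucose CTA1 did not pass the test (0.10 ± 0.32 and -0.15 ± 0.25). Its 4 galactose values, from -2.93 to -2.59, lay below every CTA1 value of the other sugars, the lowest of which was -0.41. The catalase genes therefore had opposite signs in galactose on every array.

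The glutathione peroxidase genes also parted. GPX2 (YBR244W), a Yap1 target, was called lower in all 3 sugars, with means of -1.60 ± 0.09, -0.50 ± 0.08 and -1.60 ± 0.20 in raffinose, galactose and glucose (limma, adjusted p = 1.8e-07, 0.00068 and 4.1e-08). All 12 of its values were below 0, where all 12 of GPX1 were above. HYR1, the glutathione peroxidase that relays the peroxide signal to Yap1, was not called, with means of 0.058 ± 0.62, -0.56 ± 0.54 and 0.29 ± 0.77, though the block called it in galactose (adjusted p = 0.00024) and glucose (adjusted p = 0.0205).

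Of the peroxiredoxin genes outside the 10, TSA2, the stress-inducible paralog of TSA1, was called higher in glucose (0.52 ± 0.23, limma, adjusted p = 0.0013). AHP1, which encodes an alkyl hydroperoxide reductase, was not called, with a mean of 0.40 in raffinose (adjusted p = 0.369; adjusted p = 0.0028 with the block). DOT5, for a nuclear peroxiredoxin, was lower in galactose (-0.73 ± 0.36) and higher in glucose (0.45 ± 0.29, a call lost without glucose replicate 1 or 2, with adjusted p = 0.127 and 0.125). SRX1, for the sulfiredoxin that repairs over-oxidised Tsa1, did not pass the test in any sugar, though the block called it in raffinose (-0.46, adjusted p = 0.0074) and glucose (0.38, adjusted p = 0.0161).

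Among the thioredoxin genes, TRX3, the mitochondrial thioredoxin, was higher in glucose at 1.64 ± 0.26 (limma, adjusted p = 2.8e-06) and lower in galactose at -0.46 ± 0.34 (adjusted p = 0.0265). The order of the TRX3 means over the sugars was that of PRX1, and its galactose call was lost without galactose replicate 3 or 4 (adjusted p = 0.16 and 0.0726). The mitochondrial thioredoxin reductase gene TRR2 was higher in glucose (0.86 ± 0.07) and raffinose (0.89 ± 0.45). Its cytosolic counterpart TRR1 was lower in all 3 sugars, at -0.97 ± 0.05 in glucose, -0.69 ± 0.47 in raffinose and -0.89 ± 0.33 in galactose. TRX1, for a second cytosolic thioredoxin, was called lower in galactose (-1.45 ± 0.55, adjusted p = 0.0002), and with the block also in raffinose (-0.52, adjusted p = 0.0042) and glucose (-0.58, adjusted p = 0.0014).

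Among glutaredoxin genes, GRX3 and GRX6 were called higher in all 3 sugars, like GRX1. GRX3, which takes part in iron regulation, ran from 1.01 ± 0.10 in glucose to 1.13 ± 0.40 in raffinose, and GRX6, for an enzyme of the secretory pathway, reached 1.50 ± 0.31 in galactose. GRX4, the paralog of GRX3, was called lower in all 3, down to -1.40 ± 0.37 in galactose. The mitochondrial GRX5 was called lower in galactose (-1.65 ± 0.49), while GRX7 was called higher in raffinose (0.84 ± 0.34) and glucose (0.87 ± 0.18). The glutaredoxin family thus held genes called in each direction.

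Of the genes for glutathione synthesis and use, GSH1, for the first step of glutathione synthesis, was higher in galactose (0.89 ± 0.40, limma, adjusted p = 0.00058) and lower in glucose (-0.74 ± 0.22, adjusted p = 0.0022). GSH2, for the second step, was lower in glucose (-0.81 ± 0.11). GLR1, the glutathione reductase gene, was higher in glucose (1.26 ± 0.47) and raffinose (0.81 ± 0.57, a call lost without raffinose replicate 1 or 2, with adjusted p = 0.0774 and 0.0909). The glutathione transferase gene GTT2 was higher in galactose (1.87 ± 0.40) and glucose (1.30 ± 0.04). GTT1, the other glutathione transferase gene listed, was called lower in galactose (mean -1.09) and higher in glucose (mean 0.76). CCS1, the copper chaperone of Sod1, was lower in glucose (-0.59 ± 0.13), as SOD1 was.

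Of 14 genes for regulators, 6 were called higher and 3 lower in galactose (34.8% and 25.2% of all genes), 4 and 1 in raffinose (22.4% and 14.3%), and 3 and 3 in glucose (26.8% and 31.8%), with median log2 ratios of 0.024, 0.17 and 0.089. These counts are small and not far from the shares over all genes. MSN4, a general stress activator, was higher in all 3 sugars, at 0.40 ± 0.28 in raffinose, 0.81 ± 0.38 in galactose and 1.56 ± 0.17 in glucose (limma, adjusted p = 0.047, 0.0004 and 1.8e-06), the same order as the means of CTT1. Its raffinose call was lost whichever raffinose array was left out (adjusted p = 0.0509 to 0.205). MSN2, its homologue, was higher in raffinose (0.66 ± 0.29) and galactose (0.74 ± 0.35) but not called in glucose (0.057 ± 0.18). YAP1 was likewise higher in raffinose (0.58 ± 0.36) and galactose (0.85 ± 0.37) and not called in glucose (0.11 ± 0.11); its raffinose call was lost without raffinose replicate 1 or 2 (adjusted p = 0.0545 and 0.0505). Its binding protein gene YBP1 was higher in all 3 sugars, with the glucose call lost when glucose replicate 2 or 4 was left out (adjusted p = 0.052 and 0.0549). SKN7, a partner of Yap1 at peroxide-induced promoters, was called lower in glucose (-0.81 ± 0.67), where replicates 1 and 2 were both at -0.22 and replicates 3 and 4 at -1.38 and -1.40. CUP2, the copper-responsive activator of SOD1, was lower in raffinose (-1.03 ± 0.32) and glucose (-0.76 ± 0.07). HAP2 (-0.83 ± 0.27) and HAP3 (-1.18 ± 0.26), subunits of the activator of respiratory genes, were lower in galactose. With each array centred, the regulators stood at 4 higher and 4 lower in raffinose (25.5% and 25.3% of all genes). They stood at 6 and 5 in galactose (35.1% and 34.9%) and 5 and 3 in glucose (33.5% and 34.5%). With raffinose replicates 3 and 4 turned, 0 were called in raffinose, as were 0.0% of all genes. Without raffinose replicate 1 or 2 the raffinose count was 3.

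**Figure D4:**
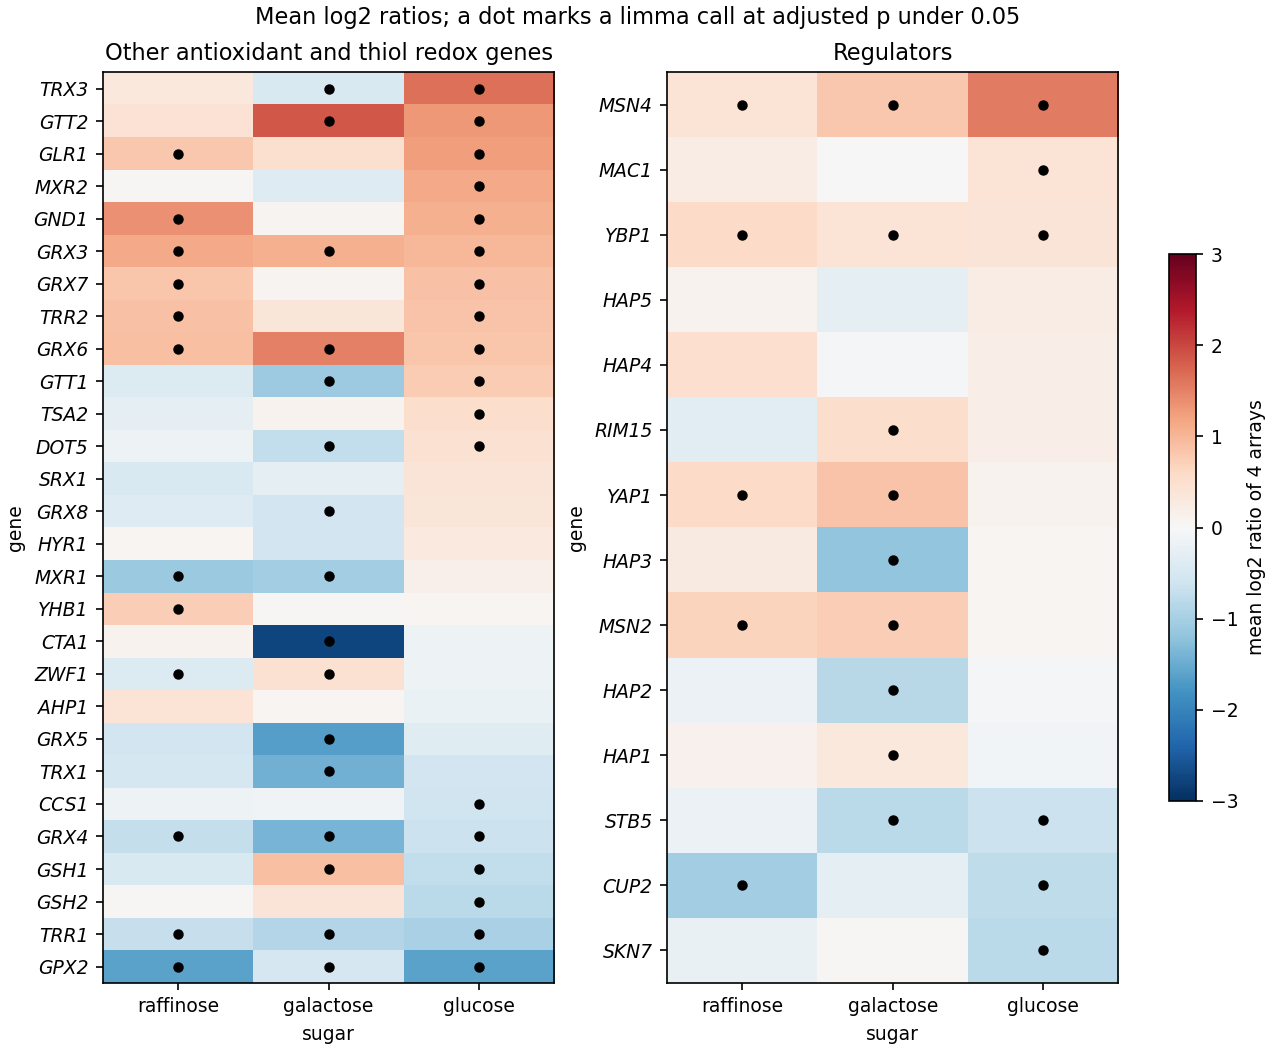
Rows are genes and columns are sugars, the colour is the mean log2 ratio of 4 arrays (red above 0, blue below 0), and a dot marks a limma call at an adjusted p under 0.05. The left panel holds 28 other antioxidant and thiol redox genes and the right panel 14 regulators, each sorted by glucose. CTA1 at -2.76 and GTT2 at 1.87, both in galactose, are the extremes of the left panel.

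Among the 10 genes, log2 ratios over the 12 arrays were closest for SOD1 and TSA1 (Pearson r = 0.99) and for GRX1 and PRX1 (r = 0.975), and farthest apart for CTT1 and SOD1 (r = -0.259). These correlations describe 12 arrays that share the sugars and the split between replicates 1 and 2 and replicates 3 and 4. Over all genes, the pattern most like that of CTT1 was that of SSE2, a gene for an Hsp110 chaperone, with means of 0.76, 1.99 and 2.70 in raffinose, galactose and glucose (r = 0.994). The nearest to PRX1 was NCE103, the carbonic anhydrase gene, with means of 1.87, 0.62 and 4.74 (r = 0.995). The nearest to SOD1 and TSA1 were the ribosomal protein genes RPL39 (r = 0.996) and RPS31 (r = 0.99), with raffinose, galactose and glucose means of -0.99, -1.63 and -1.63 for RPL39. The nearest to SOD2 and TRX2 were NAS6 (r = 0.995) and PRE8 (r = 0.991), which encode a proteasome assembly chaperone and a proteasome subunit. The others were PST2 for GRX1 (r = 0.991), RER1 for GRX2 (r = 0.991), MAN2 for GPX1 (r = 0.978) and DSC3 for CCP1 (r = 0.946).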

How the data were processed

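Arrays carried Cy5-labelled RNA in channel 1 and Cy3-labelled RNA in channel 2, per the labels. What the authors deposited is a table of log2 ratios, with 1 value for each probe on each array; how they normalized it, its log base, and whether dye-swapped arrays were turned are not given in the sources used. The log2 scale was inferred from the size of the values. Of 10807 probes, 9271 carry 1 gene name, all found in the R64 gene table, and 1536 are unnamed here. Probes were averaged per gene. Of the 10 members 8 have 2 probes and 2 have 1. A gene was kept with values on 3 of 4 arrays per sugar, and 5636 passed.

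In limma 3.58.1 (R 4.3.3), a mean per sugar was fitted to all 12 arrays and tested against 0 and between sugars. P-values were adjusted by Benjamini-Hochberg across the 5636 genes and called under 0.05. The fit was also run on simulated data with independent noise on each array. That simulation held no gap between pairs of arrays and no repeats of a culture, so it cannot speak to either. Members, lists and tests were chosen with earlier results of these data known. The named genes are the 10 members, GCR1, called genes and close relatives of the lists, and the gene with the highest correlation to each member; the 5 glycolytic genes were added to check direction.

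Arrays with the same replicate number deviated together from the means of their sugars (r = 0.522 to 0.893). The replicate block was run on that ground. Once the gap of replicates 1 and 2 from replicates 3 and 4 was removed, the range was -0.321 to 0.153. Beyond that gap these values thus do not show a pairing by number. The block also still entered the arrays singly, so repeats of a culture counted as separate values. Alternatives were centring, filters on missing values, the replicate block, averaging of arrays in pairs, the median of probes, robust eBayes, turned raffinose arrays, separate fits per sugar, each array left out and, chosen after seeing the data, a term for the pair of arrays. Promoter motifs were not analysed here.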

Additional observations from a re-analysis of the deposited data

Results flagged for a closer look

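The test of the difference between sugars (limma, adjusted p under 0.05) marked 10 differences of log2 ratio among the members. Between raffinose and glucose these were -1.92 for CTT1, -1.31 for GRX1, -1.42 for GPX1 and -2.03 for PRX1. Between galactose and glucose they were -0.65 for CTT1, -1.64 for GRX1, -1.53 for GPX1 and -3.24 for PRX1. Between raffinose and galactose they were -1.28 for CTT1 and 1.22 for PRX1. In glucose, 1 CTT1 array stood apart from the other 3, at 3.71 (replicate 2), a gap that is small beside the mean of 3.60; 33 sets of 4 arrays were examined, and chance marks about 1 in 20. Outside the genes analysed, 114 unnamed spots had ratios over 5 in size on at least 6 arrays, and all 114 changed sign between replicates 1 and 2 (median -8.54) and replicates 3 and 4 (median 7.98).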

How the results depend on the processing

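Of 29 called values of the members, 12 kept their direction and call under every alternative run other than turning arrays, and 17 lost the call in at least 1. The number of members called in raffinose, galactose and glucose was 5, 6 and 8, and 4, 4 and 2 for raffinose minus glucose, galactose minus glucose and raffinose minus galactose. Leaving out single arrays gave 4 to 6, 3 to 6, 6 to 8, 4 to 4, 3 to 5 and 2 to 2. For the 28 other redox genes it gave 11 to 12, 14 to 16 and 17 to 18 in the 3 sugars, and for the regulators 3 to 4, 7 to 9 and 4 to 6. The galactose count of members was 3 without galactose replicate 3 or 4, and the raffinose count of regulators was 3 without raffinose replicate 1 or 2.

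With the replicate number as a block, 8 members were called in raffinose and 7, 8 and 8 in the contrasts, and 22 other redox genes in raffinose; a term for the pair of arrays gave 8, 7, 8 and 8 members, 23 redox genes and 8 regulators there. The block changed no other count by over 1.5 times. With replicates 1 and 2, and 3 and 4, averaged, 2, 2 and 4 members were called in the sugars and 1 and 0 in the contrasts of raffinose with glucose and with galactose; redox genes fell to 1 in raffinose and 8 in glucose and regulators to 0, 5 and 1. With 1 and 3, and 2 and 4, averaged, 8 members were called in raffinose and 7, 8 and 8 in the contrasts, with 22 redox genes and 10 regulators in raffinose. With 1 and 4, and 2 and 3, averaged, these were 10, then 9, 8 and 9, with 24 and 14. Of all 5636 genes, that last averaging called 2521 higher and 2037 lower in raffinose. Averaging 1 and 3, and 2 and 4, called 2064 and 1596 there, and the term for the pair of arrays 2076 and 1554. Most genes were thus called in these settings, in the contrasts as well, so these counts do not set the lists apart. Centring gave 7 members in galactose against glucose, 4 in raffinose against galactose and 8 regulators in raffinose, and a fit on raffinose arrays alone 3 regulators. With raffinose replicates 3 and 4 turned, 0 members, 0 redox genes and 0 regulators were called in raffinose (0.0% of all genes), and 5 members against galactose. The cause of these changes was not tested.

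Signs changed for values near 0 and under turning. With arrays centred, CCP1 in galactose was -0.084 and GRX2 in raffinose minus glucose -0.092. With raffinose arrays turned, raffinose ratios became 0.46 for SOD1, 0.37 for SOD2, 0.55 for TRX2, 0.53 for TSA1, 0.36 for GRX4, 0.23 for MXR1, 0.39 for TRR1, 0.22 for ZWF1 and 0.28 for CUP2; raffinose minus glucose became -0.44 for GRX2, 0.32 for SOD2 and 0.47 for TRX2, and raffinose minus galactose -0.25 for GPX1 and -0.67 for GRX1. Leaving out single arrays moved GRX2 in raffinose minus glucose between -0.15 and 0.22, CCP1 in galactose between -0.091 and 0.10, SOD2 and TRX2 in glucose between -0.0495 and 0.17 and between -0.17 and 0.38, and SOD1 and TSA1 in galactose minus glucose between -0.30 and 0.22 and between -0.31 and 0.19. Precision is limited by 4 arrays per sugar, and signal over background is unknown.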
